A study of Mus musculus with 5 samples.

Results

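Serpina antiproteases and the heavy chains of inter-alpha-trypsin inhibitor are plasma proteins made by the liver, and 10 of their genes are described here. They are Serpina1a, Serpina1b, Serpina1d, Serpina1e, Serpina3k, Serpina3n, Itih1, Itih2, Itih3 and Itih4. Members were every non-control probe whose RefSeq accession maps to 1 of these symbols, without regard to its value. Of the 10 genes, 8 had a probe, and these 8 genes had 9 of the 41174 probes on the array. No probe matched Serpina1a or Serpina1b, which were therefore not measured under their own names.

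Total RNA of 5 livers, called livers 1 to 5, was measured on 5 two-colour arrays, 1 array on each slide. The livers came from male C57BL/6N mice fed an EtOH diet for 8 weeks and given 3 EtOH binges of 5 g/kg, and their cDNA carried Cy5. The Cy3 channel of every array carried the purchased Ambion Mouse Assorted Total RNA, for which the labels give the strain C57BL/6N and the tissue liver. No array had exchanged dyes, and no control diet was analysed here, so each ratio below sets ethanol-exposed liver against that RNA and is no measure of an ethanol effect. Nothing in the labels says whether the 5 samples are separate animals, so each p-value rests on the spread among these samples only, which may be technical.

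Inhibitory serpins are bait for proteases: the enzyme cuts an exposed loop, stays bound and is inactivated. Serpina1 genes encode alpha1-antitrypsin, the main plasma inhibitor of neutrophil elastase, which mice carry in several near-identical copies. Itih1, Itih2 and Itih3 encode heavy chains that are linked to bikunin, the product of Ambp, and can be passed on to hyaluronan in the extracellular matrix. Itih4 encodes a related plasma protein without a bikunin partner. Serpina3n and Itih4 are known as acute-phase genes, whose hepatic output follows interleukin 6.

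The arrays read 45018 spots each, with a median background-subtracted intensity over all probes of 78.4 to 177 in liver and of 75.5 to 151 in the reference RNA. A spot is well above background when the scanner software marks its signal as clearly higher than its surroundings. That held for 77.3% to 81.2% of spots in liver and 69.9% to 78.4% in the reference. Log2 ratios of pairs of arrays correlated across probes with r between 0.41 and 0.76, where probes are not independent replicates. All 6 hepatocyte markers with a probe were well above background on every array in both channels, and their summed signal was 337526 to 450052 in liver and 220955 to 333467 in the reference. The number of arrays limits the precision.

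All 9 probes of the Serpina and Itih genes were well above background in liver and in the reference on each of the 5 arrays, and none was saturated. Testing required 3 or more values and, on 3 or more arrays, a signal well above background in liver or reference. Of the 9 probes, 7 were tested, and 6 of these were higher in liver than in the reference at a limma adjusted p below 0.05, where 16.2% of the 31887 tested probes were higher. None was lower. The median log2 ratio of the 7 probes was 0.97, against -0.0033 over all tested probes. At 2-fold or more, 3 of the 7 were higher, where 1.2% of all tested probes were: Serpina1d, Serpina1e and Itih3. In bulk tissue, a different share of hepatocytes and a different amount of RNA per hepatocyte cannot be told apart.

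With loess, 8 of the 9 probes had their lowest ratio in liver 3, where 17.6% of all tested probes had theirs, and Itih2 was lowest in liver 4. With the processed signals the same 8 probes were lowest in liver 3, against 18.4% of all tested probes. With median centring 6 of the 9 were, against 9.49%, while Serpina1d, Itih1 and Itih2 were lowest in liver 5, as were 44.2% of all tested probes. The count under these settings was added after seeing the data, and it carries no test. The counts include spots that the scanner software had marked as non-uniform in brightness, which the fit leaves out. The mark took away all 5 values of Itih1 and Itih2, and 2 of the 5 values of Itih3, and it is taken up below.

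**Figure D1:**
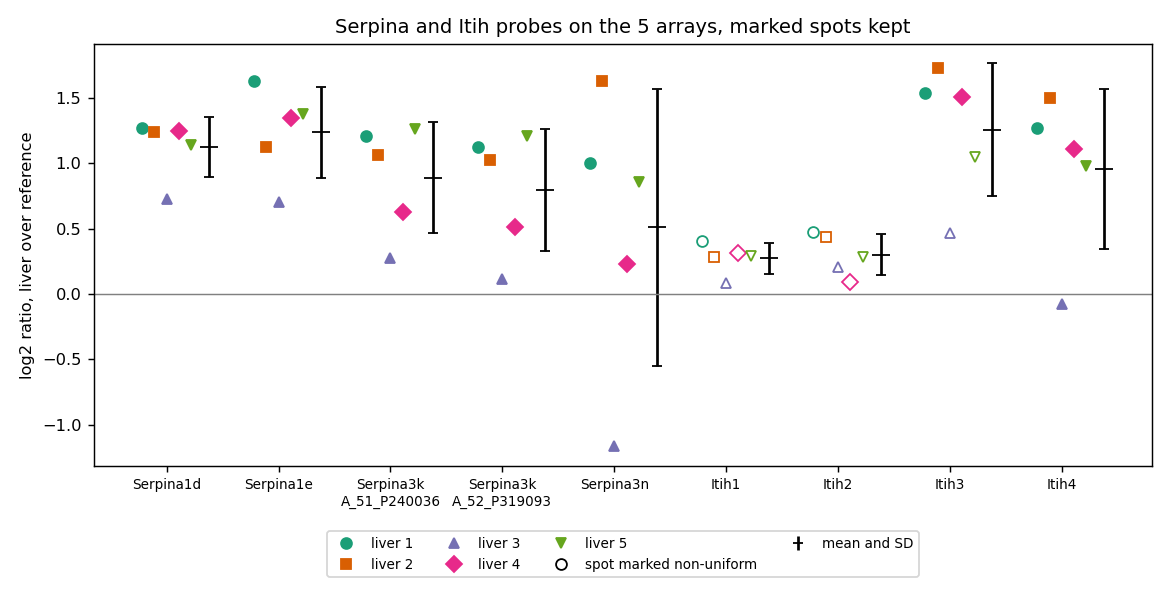
Log2 ratio of liver over reference RNA (vertical axis) for the 9 probes (horizontal axis), with marked spots kept; symbols are the 5 livers, open symbols are spots marked non-uniform, and black bars are the mean and SD over 5 livers. With loess, liver 3 (triangles) is lowest in 8 of 9 probes, and Serpina3n has the widest spread, between -1.17 and 1.63.

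Both alpha1-antitrypsin probes stood above the reference in all 5 livers. Serpina1d (probe A_51_P236303) had liver signals between 109686 and 133513, against 42853 to 66881 in the reference, and the groups of signals did not overlap. Its log2 ratios were 1.33, 1.26, 0.70, 1.24 and 1.14 in livers 1 to 5, with a mean of 1.14 ± 0.25 (SD, n = 5), or 2.20-fold (limma adjusted p 0.000212). Liver 3 stood below the other 4 livers, which lay between 1.14 and 1.33. Serpina1e (probe A_52_P598495) had liver signals between 162057 and 208712, against 62035 to 90094 in the reference. Its log2 ratios were 1.69, 1.14, 0.68, 1.35 and 1.38, with a mean of 1.25 ± 0.37 (SD, n = 5), or 2.37-fold (limma adjusted p 0.000496). Liver 3 was again the lowest. The 2 probes differed within an array by 0.11 ± 0.19 (Serpina1e minus Serpina1d, log2, SD, n = 5), a mean smaller than its SD.

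Near-identical copies limit what these probes name. Serpina1b, Serpina1d, Serpina1a, Serpina1c and Serpina1e lie in that order on chromosome 12 in RefSeq's annotation of GRCm38.p6. The promoter windows of Serpina1d and Serpina1e, 300 bases around the gene start, were 96.2% identical over the 238 bases that aligned, and the 6 pairs among the Serpina1a, Serpina1b, Serpina1d and Serpina1e windows ranged between 92.9% and 98.4%. The files give no probe sequence, so whether RNA of the other copies bound to these probes was not tested, and the names Serpina1d and Serpina1e are uncertain in that sense.

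The promoters below show how alike the Serpina1 pair is and how both differ from the promoters of the 2 genes with the widest spread between livers, Serpina3n and Itih4. RefSeq windows of build GRCm38.p6 were found for 9 of the 10 genes, and each line gives the 250 bases before the gene start, 5′ to 3′ on the gene's strand. They lie at chr12:103773634-103773883 and chr12:103956898-103957147 on the minus strand, and at chr12:104406458-104406707 and chr14:30886226-30886475 on the plus strand. Capitals mark matches to 3 letter patterns searched on both strands. These are GTTAAT, a half-site of the hepatocyte factor HNF1, TTNNGNAA, which resembles sites of C/EBP factors, and TTCNNNGAA, the core bound by STAT factors. No 2 matches overlap in the lines shown.
Serpina1d: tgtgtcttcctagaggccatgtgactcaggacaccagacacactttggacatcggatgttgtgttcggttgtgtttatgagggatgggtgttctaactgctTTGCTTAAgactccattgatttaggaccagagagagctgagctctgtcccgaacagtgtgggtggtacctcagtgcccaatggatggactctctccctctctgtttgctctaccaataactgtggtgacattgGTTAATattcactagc
Serpina1e: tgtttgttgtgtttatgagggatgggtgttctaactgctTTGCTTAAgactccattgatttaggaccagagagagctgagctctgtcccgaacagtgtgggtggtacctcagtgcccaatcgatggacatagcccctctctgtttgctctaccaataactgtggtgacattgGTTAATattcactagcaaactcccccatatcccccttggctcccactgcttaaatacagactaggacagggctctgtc
Serpina3n: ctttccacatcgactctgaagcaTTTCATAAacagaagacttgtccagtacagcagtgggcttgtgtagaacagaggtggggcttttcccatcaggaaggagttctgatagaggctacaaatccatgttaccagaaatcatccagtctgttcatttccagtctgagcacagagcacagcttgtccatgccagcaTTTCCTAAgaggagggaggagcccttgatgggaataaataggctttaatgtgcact
Itih4: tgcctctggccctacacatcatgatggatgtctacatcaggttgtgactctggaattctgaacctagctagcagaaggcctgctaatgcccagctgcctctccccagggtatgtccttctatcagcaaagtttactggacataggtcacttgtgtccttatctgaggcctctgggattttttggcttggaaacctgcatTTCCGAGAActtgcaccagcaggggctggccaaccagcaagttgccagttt

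The GTTAAT half-site occurred in 5 of the 9 windows (Serpina1a, Serpina1b, Serpina1d, Serpina1e and Itih1), where 7.10% of all 32851 windows hold it. It began 16 bases before the gene start in Serpina1d and 78 bases before it in Serpina1e, within the same run of flanking letters. The TTNNGNAA pattern occurred in 7 of the 9 windows, where 40.7% of all windows hold it. The TTCNNNGAA pattern occurred in 1 of the 9, Itih4, starting 51 bases before the gene start, where 8.30% of all windows hold it. The 4 Serpina1 windows share their sequence and are not separate cases, and a match describes letters, not binding.

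Serpina3k, which encodes a serpin of the antichymotrypsin group that binds tissue kallikrein, has 2 probes, and they gave the same picture. Probe A_51_P240036 had log2 ratios of 1.27, 1.08, 0.25, 0.63 and 1.26 in livers 1 to 5, a mean of 0.90 ± 0.45 (SD, n = 5), or 1.87-fold (limma adjusted p 0.00395). Probe A_52_P319093 had 1.19, 1.04, 0.09, 0.51 and 1.21, a mean of 0.81 ± 0.49 (SD, n = 5), or 1.75-fold (limma adjusted p 0.0092). Livers 3 and 4 were below the other 3 livers on both probes. Within an array the first probe lay above the second by 0.04 to 0.16 (log2), far less than either probe moved between livers. Liver signals were between 134417 and 155131 on the first probe, against 53478 to 100315 in the reference. On the second they were between 103414 and 119092, against 48848 to 92484 in the reference. Neither pair of these ranges overlapped, but the signals are not balanced between the dyes. With the scanner software's dye-normalized processed signals both pairs overlapped. On the first probe those were 191915 to 380675 in liver and 166264 to 213333 in the reference. On the second they were 161815 to 339024 and 163735 to 240943.

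The second Serpina3k probe lost its call when the scanner software's processed signals replaced the loess-normalized ones, at a mean of 0.40 and a limma adjusted p of 0.0503. The first kept it at 0.60. These processed values were -0.02 and 0.00 in livers 3 and 4 on the second probe.

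Like Itih4 below, whose liver 3 was at -0.10, Serpina3n had livers on both sides of the reference after loess. It encodes an antichymotrypsin-like inhibitor of leukocyte proteases such as elastase, cathepsin G and granzyme B. Its liver signals were 9755, 17081, 3396, 7482 and 11141 in livers 1 to 5. The reference signals on the same arrays were 4696, 5528, 6467, 7786 and 8619. The ranges overlapped, with liver 3 below every reference signal and livers 1, 2 and 5 above them all. The log2 ratios after loess were 1.05, 1.65, -1.16, 0.25 and 0.87, so liver 2 was highest and liver 3 was the only one below the reference. In the signals above, which are not balanced between the dyes, liver 4 was also below the reference on its array (7482 and 7786). The mean was 0.53 ± 1.07 (SD, n = 5), with a limma adjusted p of 0.327 and a 95% confidence interval of the mean between -0.36 and 1.43. The test was therefore not passed, and the interval includes differences of 2-fold and more. Without liver 3, its lowest value, the mean was 0.96 and the limma adjusted p 0.0152. Leaving out any other liver gave means between 0.25 and 0.60, with limma adjusted p between 0.394 and 0.621.

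**Figure D2:**
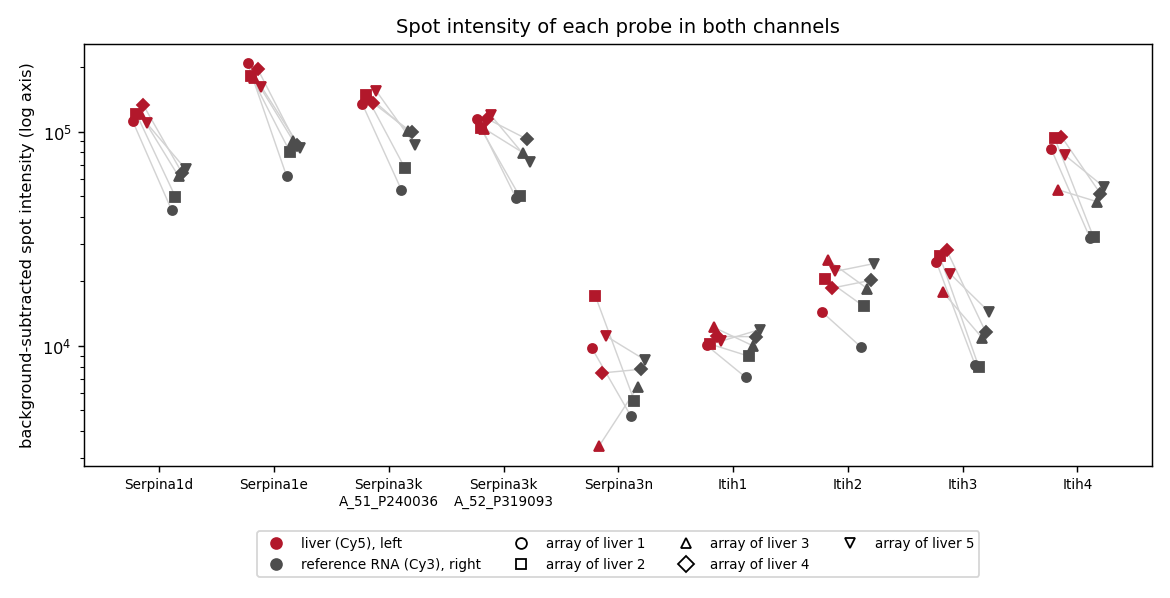
Background-subtracted spot intensity (log axis) of each probe (horizontal axis) in liver (red, left) and in the reference RNA (grey, right); grey lines join the 2 channels of 1 array and symbols name the array. The 2 channels are apart on every array for Serpina1d and Serpina1e, while the liver signals of Serpina3n range between 3396 and 17081 and cross those of the reference.

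The spread of Serpina3n between livers, an SD of 1.07, was larger than that of 99.8% of the 25893 probes well above background on every array in both channels, whose median SD was 0.18. The spread was tested with an upper-tail F test of each probe's variance against the variance that limma's fit gives for probes of that intensity, an SD of 0.18 for Serpina3n. Its unadjusted p was 0.00118 and its adjusted p 0.658, and without liver 3 its SD was 0.58. No probe on the array passed after adjustment, and 1370 probes, or 5.29%, had an unadjusted p below 0.05. The variance tested against was estimated from these same probes, with 4.63 degrees of freedom, so only very large spreads could pass adjustment. Neither the lack of passing probes nor that share shows that the livers are alike. The Serpina and Itih probes with the next largest SD in this fit were Itih4 (0.63, larger than 98.0% of probes) and the 2 Serpina3k probes (0.45 and 0.49, larger than 94.1% and 95.5%). When arrays were centred on their median in place of loess, the adjusted p of Serpina3n was 0.0291, and 108 probes passed.

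The reference RNA is common to all arrays, so the difference between 2 probes on 1 array can be followed from liver to liver. Serpina3n minus Serpina1d was -0.27, 0.39, -1.89, -1.02 and -0.28 (log2) in livers 1 to 5. Serpina3n thus stood above Serpina1d in liver 2 and farthest below it in liver 3, relative to the reference RNA.

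The genes whose pattern over the 5 livers lay nearest to that of Serpina3n were sought among 16256 probes of named genes, by the root mean square difference of log2 ratios after each probe's own mean was subtracted. They were Mt2 at 0.126, B3galt1 at 0.167, Nnmt at 0.200, Lrg1 at 0.233 and Syt12 at 0.273 (log2). Mt2 encodes a metallothionein, which binds zinc and copper, and its log2 ratios were 1.27, 1.98, -1.01, 0.56 and 1.39. Nnmt encodes nicotinamide N-methyltransferase and had 0.83, 1.52, -0.99, -0.10 and 0.48. Lrg1 encodes a secreted leucine-rich glycoprotein of the acute phase and had 1.30, 1.80, -0.34, 0.58 and 1.36. In each of these 3 genes liver 2 was highest and liver 3 lowest, as in Serpina3n. The points share their arrays and the reference RNA, and the genes were picked for this likeness from many.

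Among the heavy chains, Itih3 had the highest ratio. Its probe (A_51_P367100) gave liver signals of 24683, 26205, 17762, 28008 and 21729, against 8109, 8003, 10899, 11630 and 14402 in the reference. These ranges, which are not balanced between the dyes, did not overlap. With the processed signals they overlapped through liver 3, at 27537 to 78003 in liver and 19956 to 33907 in the reference. The usable log2 ratios were 1.59, 1.75 and 1.52 in livers 1, 2 and 4, a mean of 1.62 ± 0.12 (SD, n = 3), or 3.08-fold (limma adjusted p 0.000181). The liver spots of livers 3 and 5 were marked non-uniform and carry no value in that fit. With them kept, the log2 ratios were 1.54, 1.73, 0.46, 1.51 and 1.05, a mean of 1.26 ± 0.51 (SD, n = 5), or 2.39-fold (limma adjusted p 0.00203). The 2 marked spots were the 2 lowest ratios, so the mean of 3 livers is higher and its SD smaller than over all 5.

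Itih4 (probe A_51_P172292) was higher in 4 of the 5 livers. Its signals were 83180, 93599, 53557, 94814 and 77657 in livers 1 to 5, against 31811, 32124, 47117, 51295 and 55218 in the reference. The ranges overlapped through liver 3 alone, whose signal lay below the highest reference signal. The log2 ratios were 1.33, 1.52, -0.10, 1.11 and 0.98, a mean of 0.97 ± 0.63 (SD, n = 5), or 1.96-fold (limma adjusted p 0.0162). The call was lost without liver 1 (limma adjusted p 0.0792) or without liver 4 (0.0556). Without liver 3 the mean was 1.23.

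Itih1 and Itih2 could be given a value only with the marked spots kept, an alternative in which 8 of the 9 probes were higher and 16.9% of all tested probes were. Itih1 (probe A_51_P391485) then had log2 ratios of 0.41, 0.28, 0.08, 0.31 and 0.29, a mean of 0.27 ± 0.12 (SD, n = 5), or 1.21-fold (limma adjusted p 0.0214). Its liver signals were between 10053 and 12228, against 7133 to 11910 in the reference, so the ranges overlapped. Itih2 (probe A_51_P196726) had 0.48, 0.43, 0.21, 0.09 and 0.28, a mean of 0.30 ± 0.16 (SD, n = 5), or 1.23-fold (limma adjusted p 0.0206). Its signals also overlapped, with 14476 to 25051 in liver and 9931 to 24245 in the reference. Both calls were lost with median centring, at 0.14 for Itih1 (limma adjusted p 0.477) and 0.18 for Itih2 (0.363).

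Set against each other on the same arrays with marked spots kept, Itih3 exceeded Itih1 in all 5 livers, by 0.38 to 1.45 with a mean of 0.98 ± 0.42 (log2, SD, n = 5). Itih4 exceeded Itih2 in 4 of 5 livers, by a mean of 0.66 ± 0.55, and was below it by 0.29 in liver 3. Itih4, Itih3 and Itih1 lie in that order on chromosome 14, and Itih2 lies on chromosome 2. These differences carry no test of their own.

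The mark that removed Itih1 and Itih2 depended on brightness. Over all spots, 32.3% of liver spots between 5000 and 10000 units of background-subtracted signal and 29.2% of those between 10000 and 30000 were marked non-uniform. In the reference channel, 13.5% and 16.8% of spots in the same ranges were marked. Of liver spots up to 100 units 0.00499% were marked, and of the 344 over 100000 none was. Itih1 and Itih2, with liver signals between 10053 and 25051, lay in the second of these ranges, and their liver spots were marked on all 5 arrays. On 2 arrays for Itih1 (livers 3 and 4) and 2 for Itih2 (livers 4 and 5) the spot was marked in the reference channel too. Serpina3n, with liver signals between 3396 and 17081, was not marked on any array. In all, 225 probes had every spot marked on all arrays.

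**Figure D3:**
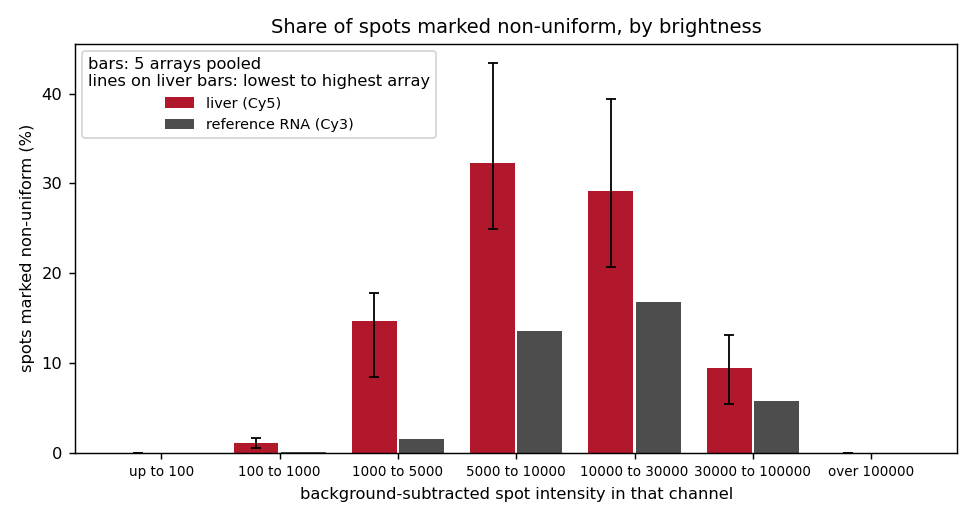
Percentage of spots marked non-uniform (vertical axis) by background-subtracted intensity in that channel (horizontal axis), for liver (red) and the reference RNA (grey), pooled over 5 arrays; lines on the liver bars span the lowest to the highest array. The share in liver is 32.3% between 5000 and 10000 and 29.2% between 10000 and 30000, where the liver signals of Itih1, Itih2 and Itih3 lie.

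At the bright end the ratios depend on how the channels are balanced. Serpina1d, Serpina1e, both Serpina3k probes and Itih4 are among the 100 brightest probes of the array. With marked spots kept, 51 of the other 95 of these, or 53.7%, were higher in liver, and 10 were lower. The median log2 ratio of those 95 probes was 0.37 with loess, and by array it was 0.30, 0.45, 0.19, 0.33 and 0.47 in livers 1 to 5. With the processed signals it was 0.12. The mean of Serpina1d was 1.14 with loess and 0.83 with the processed signals, that of Serpina1e 1.25 and 0.92, and that of Itih4 0.97 and 0.76. The deposited ratios gave the same 3 means as the processed signals, and on them Itih3 (1.18) was the 1 gene past 2-fold. Serpina3n, which is dimmer, was at 0.53 under both. Brightness depends on the probe as well as on the RNA, so no order of abundance between the genes is read from it.

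**Figure D4:**
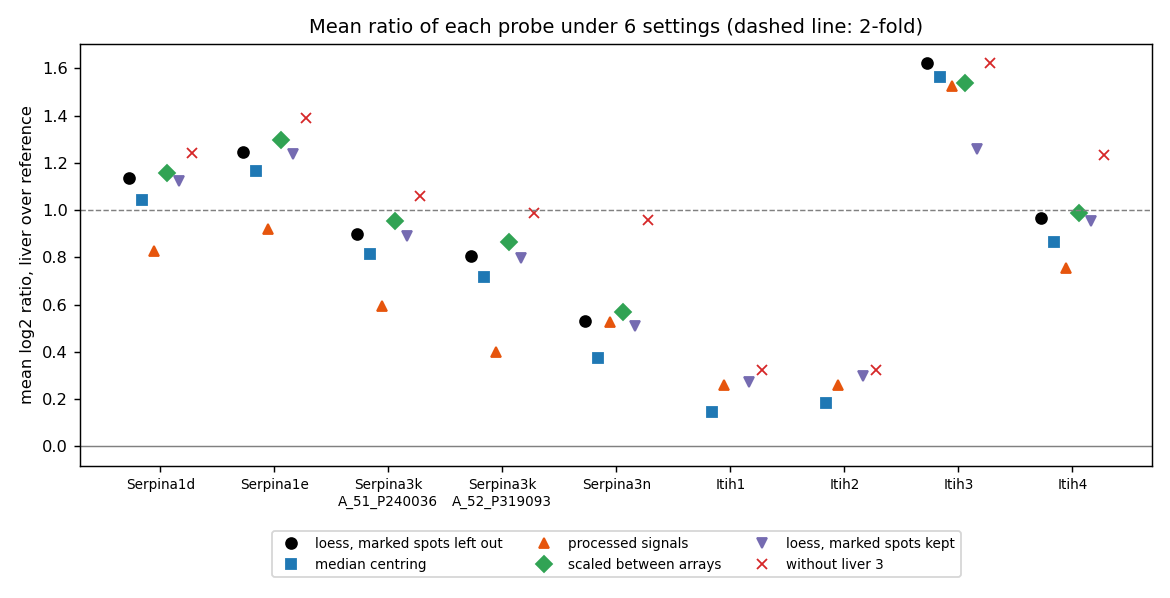
Mean log2 ratio of liver over reference RNA (vertical axis) of the 9 probes (horizontal axis) under 6 settings, given by symbol; Itih1 and Itih2 have values only with marked spots kept, also in the other settings shown for them. The processed signals lie below loess for the bright Serpina1 and Serpina3k probes (Serpina1d 0.83 and 1.14), and leaving out liver 3 moves Serpina3n to 0.96.

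The surroundings of these genes were described with 6 lists of related genes, each gene by its brightest tested probe. Over the 14917 named genes, 14.5% were higher and 13% lower, and the median log2 ratio was -0.02. Of 15 other serpins and plasma protease inhibitors tested, 5 were higher and 2 lower, with a median of 0.27. Serpina3m, the serpin gene between Serpina3k and Serpina3n on chromosome 12, was at 0.71 ± 0.49 (SD, n = 5, limma adjusted p 0.0147). Its log2 ratios of 1.13, 1.02, 0.02, 0.37 and 1.03 had the order of livers 3 and 4 lowest that Serpina3k showed. The murinoglobulin Mug1, a broad plasma protease trap, was at 0.59 ± 0.12 and was highest in liver 3, at 0.79. Serpinf2, the plasmin inhibitor, was at 0.53 (n = 4). Serpinf1, which encodes an anti-angiogenic serpin, was lower at -0.59, and Serpinc1, antithrombin, at -0.24.

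Of the partners of the heavy chains, Ambp, the gene of bikunin, was the 1 higher gene of 9 tested. Its log2 ratios were 1.46, 1.51, 0.17, 1.15 and 0.93, a mean of 1.04 ± 0.54 (SD, n = 5), with a limma adjusted p of 0.00588. Stab2, a hyaluronan scavenger receptor of sinusoidal endothelium, was lower at -0.43 ± 0.07, and the list's median was -0.10. Tnfaip6, whose product transfers heavy chains to hyaluronan, and Has1, a hyaluronan synthase, were never well above background in liver.

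Of 10 proteases held by such inhibitors, 3 were higher and none lower, with a median of 0.12. These were plasminogen (Plg, 0.45), prothrombin (F2, 0.31) and the pancreatic chymotrypsinogen gene Ctrb1 (0.26). Of 11 genes for folding and export of secreted proteins, Lman1, a cargo receptor, was higher (0.34, n = 4), and the median was 0.15. Of 15 genes of interleukin 6 and STAT3 signalling, the kinase gene Jak2 was higher (0.41) and the receptor gene Lifr lower (-0.30), with a median of 0.10. Over the 14 of its genes with a value in every liver, the mean log2 ratio was highest in liver 2 (0.49) and lowest in liver 3 (-0.23), as Serpina3n was. The same order held for 12 other serpins and plasma protease inhibitors (0.50 in liver 2 and -0.24 in liver 3). It also held for 9 of the proteases (0.26 and 0.02). Of 10 liver transcription factors, Foxa1 (0.58) and Foxa3 (0.53) were higher, Onecut1 (-0.96) and Foxa2 (-0.36) were lower, and the median was -0.07.

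**Figure D5:**
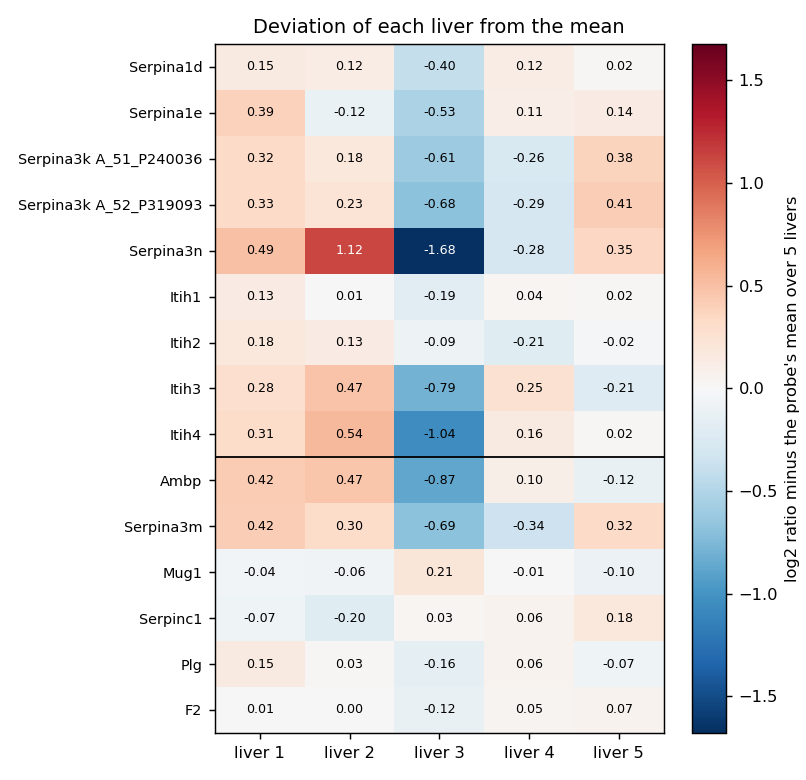
Deviation of each liver's log2 ratio from the probe's mean over its livers (colour, log2), for the 9 probes above the line (marked spots kept) and 6 genes of the related lists below it; columns are livers 1 to 5. With loess, liver 3 is below the mean for every Serpina and Itih probe, for Ambp (-0.87) and for Serpina3m (-0.69), and above it for Mug1 (0.21).

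Cell type markers were set beside these values. The mean log2 ratio of the 4 hepatocyte markers with values in every liver was 0.17, 0.47, 0.37, 0.53 and 0.63. These are livers 1 to 5 in order, with liver 1 lowest, where Ass1 was at -1.31. Over all 6 tested hepatocyte genes, missing values left out, the means were 0.18, 0.49, 0.11, 0.23 and 0.27. Liver 3 was lowest in that set, so which liver was lowest depended on the genes used. Of the 6 tested hepatocyte genes Alb (1.15) and Apoa1 (0.94) were higher and Ass1 (-0.58) lower. The neutrophil list was highest in liver 2, at 0.65, and lay between -0.24 and 0.12 in the other 4, with Mpo (0.46) higher of 7 tested. Its summed signal was 1783 to 3118 in liver and 1778 to 3043 in the reference. Of 6 Kupffer cell and macrophage genes 4 were lower, Vsig4 (-0.68), Clec4f (-0.52, n = 4) and Adgre1 (-0.34) among them, with summed signals of 6536 to 8951 in liver and 7909 to 12452 in the reference. Of 6 endothelial genes 3 were lower, of 6 stellate cell genes 2 (Col1a1 at -1.002 and Reln at -0.38), and of 5 bile duct genes 2 (Spp1 at -0.55 and Krt19 at -0.37). Summed signals of exocrine pancreas markers were 172 to 419 in liver and 264 to 493 in the reference, with Cpa1 lower (-0.42), and those of kidney markers 898 to 1616 in liver and 651 to 1331 in the reference, with Kap higher (0.58). The part of these cell types in the ratios of the Serpina and Itih genes was not tested.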

How the data were processed

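Per the file headers, the authors read 2-colour Agilent arrays with Agilent Feature Extraction 11.5.1.1, and the deposited scanner files hold spot and local background intensity (median pixel values) in both channels, not normalized, beside background-subtracted and dye-normalized processed intensity values and their log10 ratio as deposited. The authors' deposited table holds log2 ratios for 40599 probes, and 99.7% of these values differed by less than 0.001 from the same array's processed signals as a log2 ratio, which settles scale and direction. Its column medians lay between -0.10 and -0.03, so it was not centred further.

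From the median intensities, background was corrected with normexp (offset 50) and each array normalized by loess in limma 3.58.1 under R 4.3.3, with weight 0 for control spots and marked outlier spots (2.32% to 4.05% per array), which were then dropped. Spots of a probe were averaged. Mean log2 ratios were tested against 0 (two-sided; moderated by eBayes with a robust, intensity-dependent prior; Benjamini-Hochberg over 31887 probes). No dye swap balances a probe's dye effect, and the ratio omits any spread of the reference RNA itself. Probes were named through RefSeq accessions, which matched for 24375 of 41174 probes. Ranges of signal and of spread use background-subtracted intensities and log2 ratios. All members are named, with up to 3 highest and 3 lowest genes that passed in each list and the 5 genes nearest in pattern to the member with the largest SD. The members and lists were chosen with earlier results of these data known. The fit was tested on simulated data. Those values were drawn independently for each probe and array, without dye effects, so that test does not cover such effects.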

Additional observations from a re-analysis of the deposited data

Results flagged for a closer look

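Among 40 probes with values in all 5 livers, namely those of the Serpina and Itih genes and of the related genes and markers that passed the test against the reference, 2 had a liver set apart from the other 4 by Dixon's test at its 95% critical value of 0.71, which chance alone does for about 5% of groups. Over all 100 genes of these lists with values in all 5 livers, whether or not they passed, 6 did. Mug2, a murinoglobulin gene of the protease inhibitor list, had a log2 ratio of 0.60 in liver 3, above the other 4 livers, whereas 8 of the 9 Serpina and Itih probes were lowest there with loess. Alb, the albumin gene of the hepatocyte list, had a log2 ratio of 1.87 in liver 5, above the other 4 livers. Neither is a Serpina or Itih probe.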

How the results depend on the processing

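Serpina1d, Serpina1e and the first Serpina3k probe kept direction and call in every alternative run, with means between 0.83 and 1.24, 0.92 and 1.39, and 0.60 and 1.06. Itih3 also did where it was tested, between 1.18 and 1.62. Without liver 1, 2 or 4 it had too few values for a test. Leaving out liver 3 or 5, whose spots were marked, could not change its mean. The changes of call for Itih4, Serpina3n, Itih1, Itih2 and the second Serpina3k probe with processed signals or median centring, or without 1 liver, are given in the report where not repeated here. The deposited ratios gave the second Serpina3k probe a limma adjusted p of 0.0523. For Itih1 and Itih2, keeping the marked spots was planned, and combining it with another normalization, with processed signals or with 1 liver left out was chosen after seeing the data. Without 1 liver each they gave limma adjusted p up to 0.0835 for Itih1 and 0.0669 for Itih2. No alternative called a Serpina or Itih probe lower.

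Leaving out 1 liver in turn gave 4 to 7 Serpina and Itih probes higher, and 2 to 5 at 2-fold, with 5 without liver 3. The same runs gave 306 to 442 of all probes higher at 2-fold, with 403 without liver 3. How many probes each run tested is not given here, so no share is stated. Itih3 could not count without liver 1, 2 or 4, because it was not tested there. With processed signals or deposited ratios 1 was 2-fold higher. Over all probes, leaving out 1 liver gave 3003 to 4803 higher and 1914 to 2866 lower, against 5160 and 3681, with the fewest of both without liver 4. With 1 probe per named gene 2117 were higher and 1902 lower, 129 and 62 at 2-fold, because fewer probes were tested. At 2-fold, 1159 were higher and 323 lower with processed signals, and 1166 and 322 with deposited ratios, against 382 and 102; the cause was not tested. Past the spread test, 1 Serpina or Itih probe, Serpina3n, was found with median centring, and 0 otherwise. Genes of the 6 related lists numbered 9 to 16 higher and 4 to 8 lower, against 13 and 6.

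No paired analysis was possible because all 5 samples form 1 group. Slide or scan session as a block was not run, because no slide held more than 1 array and all arrays fell in 1 session. Processed signals gave higher intensities than background-subtracted ones for all 9 probes.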

Other observations

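Other serpins with a wide spread between livers, chosen here after their values were seen, did not pass the test against the reference. Serpina7, thyroxine-binding globulin, had log2 ratios of 1.42, 1.15, -0.45, 0.18 and 1.14 in livers 1 to 5, with livers 3 and 4 lowest, as in both Serpina3k probes. Serpina6, corticosteroid-binding globulin, had -2.59, -0.80, 0.06, -0.61 and -0.61, with liver 1 lowest and liver 3 highest. Socs3, a feedback inhibitor of interleukin 6 signalling, did not pass either and had 0.66, 1.53, -0.75, -0.25 and 0.30.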
